A study of Mus musculus with 6 samples.

Results

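The nexin-dynein regulatory complex and the axonemal ruler are protein assemblies on the outer doublet microtubules of motile cilia and sperm tails, described here through the transcripts of 9 genes. The members were chosen by gene symbol: Drc1, Ccdc65, Gas8, Drc3, Drc7, Iqcg and Tcte1 of the complex, and Ccdc39 and Ccdc40 of the ruler. All 9 were found once each among the 29333 genes of the deposited table, and all 9 passed the filter of a mean normalised value of at least 10 that left 17480 genes to test. Whole testes were taken on postnatal day 16 from mice lacking Hsf5 on both alleles (knockout) and from controls. The genotype label of the controls is wild type, and the design text lets Hsf5 heterozygotes stand among them, so the controls may be a mixture. No other allele, no treatment and no strain is given in the sources used here. The labels list 3 samples per genotype, of which knockout 1, knockout 3, control 1 and control 2 were analysed here.

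The complex forms the nexin link between neighbouring doublets and touches the dynein arms, the motors whose sliding force bends the axoneme. Its coiled-coil base plate clamps the complex onto the doublet, and its linker lobes reach across to the next doublet. Ccdc39 and Ccdc40 proteins run as a paired filament along the doublet and, as shown in the alga Chlamydomonas, set the spacing at which the complex and the radial spokes repeat. In the mouse testis, transcripts for the sperm tail start to accumulate in pachytene spermatocytes, well before a tail is built.

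Library sizes implied by the table were 16824757 and 16209093 reads in the knockouts and 18259304 and 18557898 in the controls. Spearman's correlation over the tested genes was 0.993 between the knockouts and 0.986 between the controls. Values are normalised read counts, that is, reads divided by 1 size factor per library. Hsf5 itself had 1926 and 1602 normalised reads in knockout 1 and knockout 3, against 2541 and 3147 in control 1 and control 2. Its log2 fold change was -0.69 (SE 0.12, limma adjusted p = 0.00716; 0.0741 without knockout 3), and a gene-level value does not show which exons were read. The labels do not say that the samples came from separate animals, so p-values measure the spread between these libraries only.

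All 9 genes were lower in knockout than in control testes, and all 9 passed the limma test (Benjamini-Hochberg adjusted p under 0.05 over all tested genes). In the same test 2366 of 17480 genes, or 13.5%, were lower and 3.28% were higher. Both knockouts lay below both controls for 9 of 9 members, a separation seen in 31.9% of all tested genes. The median log2 fold change of the members was -2.52, beside 0.01 over all tested genes. The members differed widely in size of change. Knockout levels were between 5.18% of the control mean for Tcte1 and 64.5% for Gas8. Summed over the members, the normalised reads came to 2291 and 1894 in knockout 1 and knockout 3 and to 5492 and 8823 in control 1 and control 2. Since whole testes were sequenced, fewer cells of a type and less RNA per cell cannot be told apart.

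The base plate genes held the smallest change among the 9 members, that of Gas8, and also 2 of the larger ones. Drc1, whose protein ties the complex to the doublet and is lost in a form of human primary ciliary dyskinesia, had 70.2 and 62.5 normalised reads in knockout 1 and knockout 3, against 353 and 661 in control 1 and control 2. The groups did not overlap, and the controls differed from each other far more than the knockouts did. The knockout mean was 66.3 ± 5.42, or 13.1% of the control mean of 507 ± 218 (SD, n = 2 each), and Drc1 fell by 2.85 on the log2 scale (SE 0.28, limma adjusted p = 0.000517).

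Ccdc65, also known as Drc2 and the partner of Drc1 in the base plate, had 142 and 96.3 normalised reads in knockout 1 and knockout 3, against 746 and 1194 in control 1 and control 2. Every knockout value was far below every control value. Its mean was 119 ± 32.5 in knockouts and 970 ± 317 in controls (SD, n = 2 each), and the log2 fold change was -3.0 (SE 0.25, limma adjusted p = 0.000288). This was the smallest adjusted p among the 9 members.

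Gas8, also known as Drc4, is the third coiled-coil gene of the base plate and is transcribed in many tissues that lack motile cilia. It had 552 and 436 normalised reads in knockout 1 and knockout 3, against 756 and 776 in control 1 and control 2. The groups were separate but close, and here the controls were nearly equal. The mean was 494 ± 81.9 in knockouts and 766 ± 14.3 in controls (SD, n = 2 each), and Gas8 fell by 0.64 on the log2 scale (95% interval -0.95 to -0.33, limma adjusted p = 0.0138). This call was the least stable of the 9: it was lost without control 1 (adjusted p = 0.0867), without control 2 (0.0517) and without knockout 3 (0.123), and kept without knockout 1 (0.0158).

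Among the linker genes, Drc3, which encodes a leucine-rich repeat protein, had 443 and 372 normalised reads in knockout 1 and knockout 3, against 769 and 1227 in control 1 and control 2. The knockouts were close to each other and below both controls. The knockout mean of 407 ± 50.3 was 40.8% of the control mean of 998 ± 324 (SD, n = 2 each), with a log2 fold change of -1.26 (SE 0.21, limma adjusted p = 0.00427). Without knockout 3 the adjusted p was 0.0508, just past the threshold.

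Drc7, which is needed in the mouse to form the sperm tail, had 60.1 and 53.3 normalised reads in knockout 1 and knockout 3, against 267 and 477 in control 1 and control 2. Its knockout values were close together, while its controls again differed widely. The mean was 56.7 ± 4.85 in knockouts and 372 ± 149 in controls (SD, n = 2 each), and Drc7 fell by 2.63 on the log2 scale (SE 0.28, limma adjusted p = 0.000668).

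Iqcg, also known as Drc9, encodes a calmodulin-binding protein that mouse sperm need to form a tail. It had 444 and 391 normalised reads in knockout 1 and knockout 3, against 963 and 1286 in control 1 and control 2. Both groups were tight relative to the gap between them. The mean was 418 ± 37.2 in knockouts and 1124 ± 229 in controls (SD, n = 2 each), and the log2 fold change was -1.41 (SE 0.15, limma adjusted p = 0.000679).

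Tcte1, also known as Drc5, is expressed mainly in the testis and is required for sperm motility in the mouse. It had 21 and 10.2 normalised reads in knockout 1 and knockout 3, against 108 and 497 in control 1 and control 2. The knockout values rest on 21 and 10 reads, and the controls stood far apart, by 2.20 on the log2 scale. The mean was 15.6 ± 7.64 in knockouts and 302 ± 275 in controls (SD, n = 2 each), and Tcte1 fell by 3.88 on the log2 scale (95% interval -5.37 to -2.40, limma adjusted p = 0.00467). The size of this fall depended on a single control: it was -4.98 without control 1 and -2.79 without control 2, and the adjusted p over the 4 libraries left out in turn was between 0.00831 and 0.0482.

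Both ruler genes fell. Ccdc39, whose protein pairs with that of Ccdc40 along the doublet, had 382 and 345 normalised reads in knockout 1 and knockout 3, against 914 and 1501 in control 1 and control 2. The groups were well apart, and the mean was 364 ± 25.9 in knockouts and 1208 ± 415 in controls (SD, n = 2 each). Ccdc39 fell by 1.69 on the log2 scale (95% interval -2.16 to -1.21, limma adjusted p = 0.0011).

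Its partner Ccdc40 had 176 and 127 normalised reads in knockout 1 and knockout 3, against 617 and 1203 in control 1 and control 2. The controls differed almost by a doubling, and the knockouts lay well under both. The mean was 152 ± 34.9 in knockouts and 910 ± 415 in controls (SD, n = 2 each), and Ccdc40 fell by 2.52 on the log2 scale (95% interval -3.19 to -1.85, limma adjusted p = 0.000911). The intervals of the ruler genes overlap, and the difference between their fold changes was not tested.

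**Figure D1:**
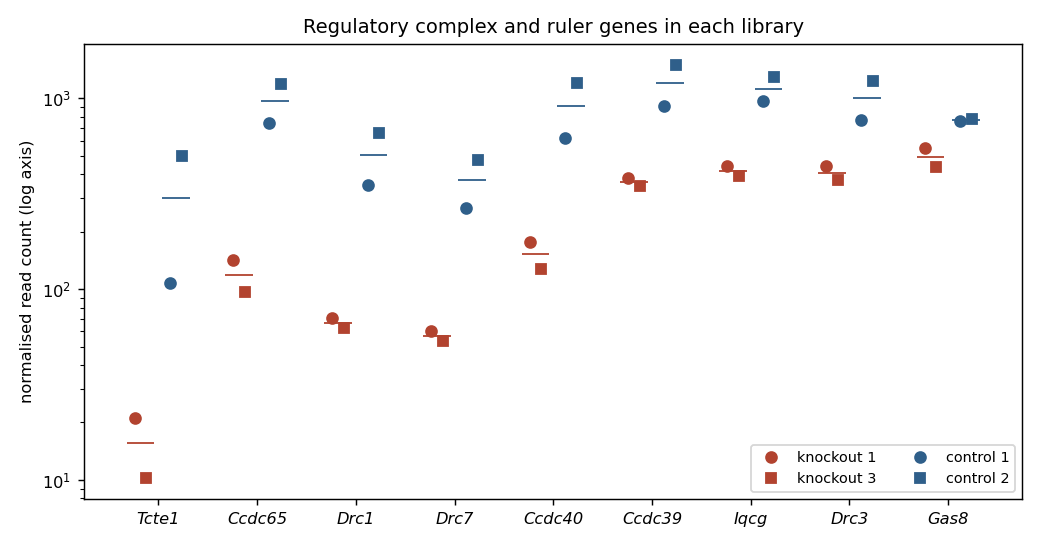
Normalised reads of the 9 members in each library on a log axis, with knockout 1 and knockout 3 to the left of control 1 and control 2. Both knockouts lie below both controls for every member, the gap is narrowest for Gas8 (552 and 436 against 756 and 776), and the controls are farthest apart for Tcte1 (108 and 497).

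The plot of normalised reads by library shows a shared order within each genotype. Knockout 3 was below knockout 1 for 9 of 9 members, and control 2 was above control 1 for 9 of 9. The share of all tested genes with either order was not counted. The order of the knockouts was not particular to the members. Early meiotic prophase markers summed to 79603 normalised reads in knockout 1 and 68544 in knockout 3, and Sertoli markers to 194187 and 184072. Control 2 exceeded control 1 by between 0.04 for Gas8 and 2.20 for Tcte1 on the log2 scale. The median was 0.71 for the members and 0.02 for all tested genes. Nor was this order particular to the members. In lists described below, the median was 0.83 for the axonemal neighbours, 0.66 for dynein arm genes and 0.73 for radial spoke and central pair genes. It was 0.68 for tektins and inner proteins, 0.52 for assembly factors and 0.91 for pachytene markers, but 0.05 for early prophase markers and -0.08 for Sertoli markers. So the controls differed from each other in the members as well, and the part of this in the fold changes was not tested. In the authors' deposited table all 9 members also had an adjusted p under 0.05 in the lower direction, beside 11.3% of the 20234 genes with an adjusted p there. Its log2 fold changes were between -4.27 for Tcte1 and -0.63 for Gas8.

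**Figure D2:**
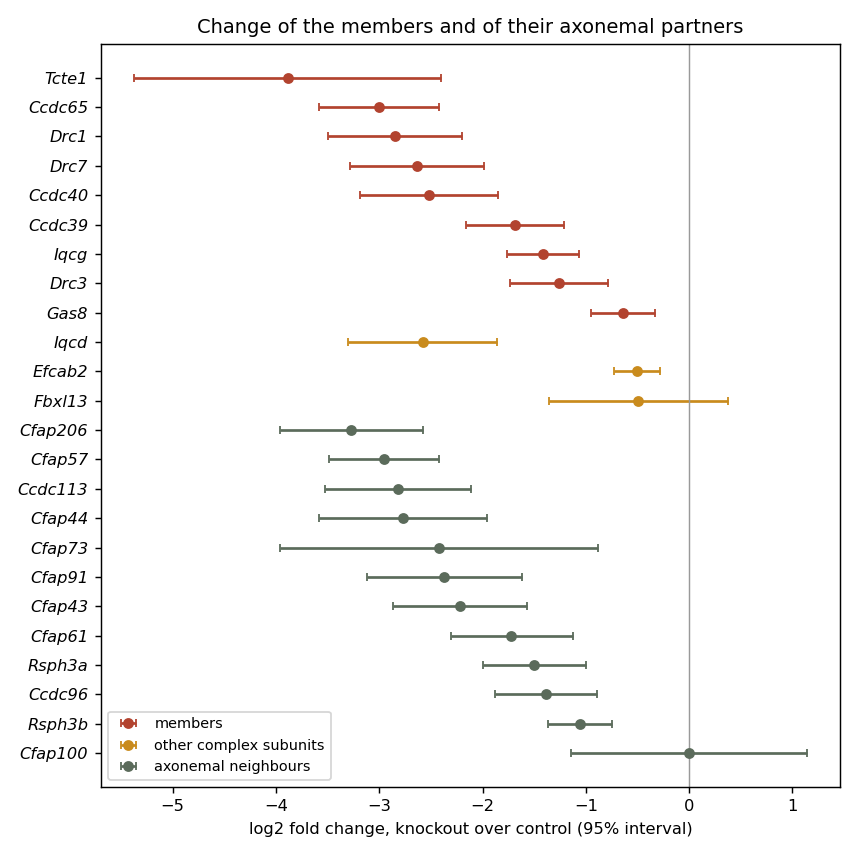
Size of the change in knockouts against controls on the log2 scale, where bars give the 95% interval of the limma fit. The median of all tested genes was 0.01. The interval of every member lies below 0, from Gas8 (-0.95 to -0.33) to Tcte1 (-5.37 to -2.40). Among other subunits of the complex and its neighbours on the axonemal repeat, the intervals of Fbxl13 (-1.36 to 0.38) and Cfap100 (-1.14 to 1.14) include 0.

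The plot of log2 fold changes with their intervals gives wide ranges within the structural classes. Base plate genes lay between -3.0 and -0.64, linker genes between -3.88 and -1.26, and the ruler genes at -2.52 and -1.69. Fitted falls of at least 2-fold were found for 8 members and of over 4-fold for 5. The shares of all tested genes with falls of these sizes were not counted. The interval of Gas8 was clear of that of every other member except Drc3. Leaving out each library in turn, every member stayed lower, but Drc3 and Gas8 did not keep their call each time. Their log2 fold changes were then between -1.59 and -0.92 for Drc3 and between -0.81 and -0.47 for Gas8. It was between -3.30 and -2.40 for Drc1, between -3.34 and -2.66 for Ccdc65, and between -3.05 and -2.22 for Drc7. For Iqcg it was between -1.62 and -1.21, for Ccdc39 between -2.04 and -1.33, and for Ccdc40 between -3.0 and -2.04.

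Members share exon sequence with a gene on the opposite strand in the GENCODE M21 annotation of build GRCm38 in 3 cases, and the sources used here do not say whether the authors counted by strand. Iqcg shares 2965 exonic bases, 48.1% of its exon length, with Lrch3. Tcte1 shares 729 bases (23.7%) with Tmem151b, and Ccdc39 shares 1256 bases (16.9%) with Ttc14. Reads from these stretches cannot be assigned without strand. None of the partners passed the limma test: the log2 fold change was -0.17 for Lrch3 (adjusted p = 0.467), 0.39 for Tmem151b (0.429) and 0.20 for Ttc14 (0.23).

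Dividing by exon length puts the members on 1 scale of normalised reads per kilobase of exon. The length counts every annotated exon of a gene, whether or not it is used in the testis. Levels of different genes can therefore be set side by side only roughly. Summed over the 9 members this level was 513 and 415 in knockout 1 and knockout 3 and 1370 and 2242 in control 1 and control 2. The mean of the knockouts was 25.7% of the control mean. In knockouts the order of mean levels per kilobase was Gas8 (123), Drc3 (90.2), Iqcg (67.8), Ccdc65 (59.9), Ccdc39 (48.8), Ccdc40 (25.2), Drc1 (24.7), Drc7 (19) and Tcte1 (5.09). Between neighbours in that order, the knockout libraries overlapped for Iqcg and Ccdc65, for Ccdc65 and Ccdc39, and for Ccdc40 and Drc1. In controls the order was Ccdc65 (487), Drc3 (221), Gas8 (191), Drc1 (189), Iqcg (182), Ccdc39 (162), Ccdc40 (151), Drc7 (124) and Tcte1 (98.3). There only Ccdc65 stood clear of its neighbour, and the control libraries of all other neighbouring genes overlapped.

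The share that each member held of the summed level was also compared, as a description. Gas8 made up 26.8% and 26.2% of the summed level per kilobase in knockout 1 and knockout 3, against 13.8% and 8.63% in control 1 and control 2. Ccdc65 made up 13.9% and 11.7% in the knockouts, against 27.3% and 26.7% in the controls. Gas8, Iqcg, Drc3 and Ccdc39, grouped after their values were seen as the members with the smallest falls, together held 70% and 72.6% in the knockouts, against 46.5% and 39% in the controls. A larger joint share in the knockouts follows from choosing them this way and restates their fold changes.

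Ratios between partner genes of 1 library do not depend on the size factor. Ccdc65 over Gas8, both base plate genes, was 0.519 and 0.444 per kilobase in knockout 1 and knockout 3, against 1.99 and 3.1 in control 1 and control 2. Drc1 over Gas8 was 0.19 and 0.214 in the knockouts, against 0.698 and 1.27 in the controls. Drc1 over Ccdc65, in contrast, was 0.366 and 0.482 in the knockouts and 0.351 and 0.411 in the controls, so these overlapped between genotypes. The ruler ratio, Ccdc40 over Ccdc39, was 0.57 and 0.454 in the knockouts, against 0.832 and 0.989 in the controls. With 2 libraries a side, an exact permutation test of a single ratio cannot give a two-sided p below 0.333, so no test was made.

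**Figure D3:**
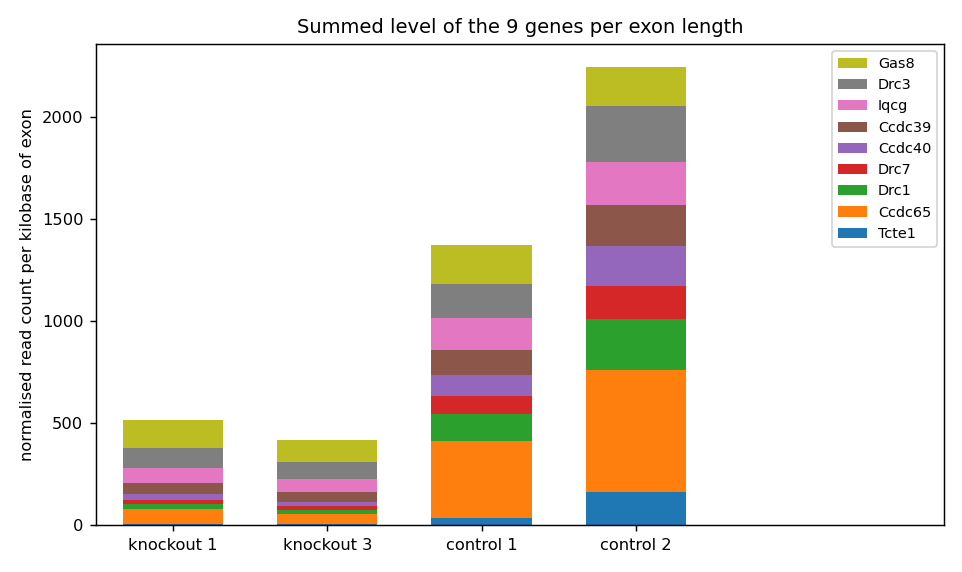
Normalised reads per kilobase of exon for each member in each library, knockouts left of controls. Ccdc65 leads the controls (mean 487) and Gas8 leads the knockouts (mean 123).

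In the levels per kilobase that the plot draws by library, the control means below Ccdc65 ran from 221 for Drc3 to 98.3 for Tcte1. The knockout means ran from 123 for Gas8 to 5.09 for Tcte1. Tcte1 is lowest in both knockouts and in control 1, while in control 2 it stood at 162 and Drc7 at 160.

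Of the scalings tried, the one to pachytene markers changed the calls of members. Markers of pachytene spermatocytes fell as well: 23 of 23 tested markers were lower, with a median log2 fold change of -2.18. When the libraries were scaled so that these markers were level, the median of all genes moved to 2.55, with 1.58% of tested genes called lower and 92.4% higher. On that scale Tcte1 was still lower (log2 fold change -1.39, limma adjusted p = 0.0321), and Gas8 was higher (1.92, adjusted p = 0.00572). The other members did not pass. Their log2 fold changes were -0.45 for Ccdc65, -0.30 for Drc1, -0.09 for Drc7, 0.04 for Ccdc40, 0.87 for Ccdc39, 1.14 for Iqcg and 1.30 for Drc3, with limma adjusted p between 0.0602 and 0.955. Such a scaling adds nearly the same amount to every gene, so members that fell by less than that amount come out above 0 by construction. All 9 lay below the median of all genes on this scale too, which carries over from the main fit by the same construction.

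**Figure D4:**
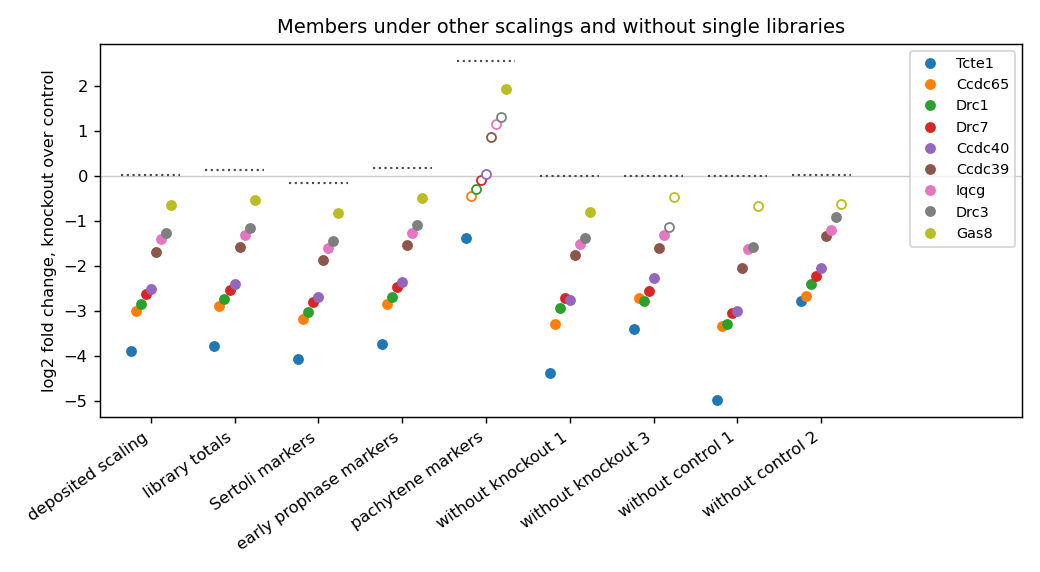
Log2 fold change of each member under 5 scalings and with each library left out, with filled points for calls, open points for values that were not called, and a dotted line at the median of all genes in that setting. Of the settings drawn, scaling to the pachytene markers, where that median is 2.55, is the one that puts members above 0.

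The plot of settings shows that library totals, Sertoli markers and early prophase markers left all 9 members called lower, as did TMM factors. Of all tested genes, 11.5% were called lower with library totals, 22.6% with Sertoli markers, 10% with early prophase markers and 13% with TMM factors. Without a filter on low values 6 members were called lower, beside 2.78% of all genes. Without a mean-variance trend limma called 0 members, beside 0.229% of all genes, and 9 members were lower at an unadjusted p under 0.05, beside 16.2% of all genes.

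Few other subunits of the complex were tested. The list held 15 names, which include other names of members and of one another, so a name not found is not always a missing subunit. Of these names 5 were in the table and 3 were tested. Lower levels were called for 2, and the median log2 fold change was -0.50. Iqcd, also known as Drc10, had 48.1 and 35.9 normalised reads in knockout 1 and knockout 3, against 188 and 340 in control 1 and control 2, and fell by 2.58 on the log2 scale (SE 0.32, limma adjusted p = 0.00109). Efcab2, also known as Drc8, had 1263 and 1160 normalised reads in the knockouts, against 1608 and 1833 in the controls, and fell by 0.50 (SE 0.10, adjusted p = 0.0103; 0.109 without knockout 3). Fbxl13, also known as Drc6, had 26.1 and 22.5 normalised reads in the knockouts and 29.1 and 40.7 in the controls, and was not called (log2 fold change -0.49, limma adjusted p = 0.431). The groups did not overlap in any of these genes, Fbxl13 included, and the sizes of change differed. Both knockouts lay below both controls in 31.9% of all tested genes. Iqca and Ccdc153 were under the filter.

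Genes for structures that sit beside the complex on the same axonemal repeat were mostly lower too. Of 12 tested neighbours 11 were lower (10 or 11 with 1 library left out), with a median log2 fold change of -2.29. The log2 fold changes include Cfap206 (-3.27), Cfap91 (-2.37) and Cfap61 (-1.72) of the radial spoke bases, Rsph3a (-1.50) and Rsph3b (-1.06) of the spokes, and Cfap43 (-2.22) and Cfap44 (-2.77) of the tether of an inner arm dynein. Cfap57, an adaptor of inner arm dyneins, had -2.95, and Ccdc113 (-2.82) and Ccdc96 (-1.39) encode partners near a spoke base. Cfap73 (-2.42) had only 4.01 and 7.17 normalised reads in the knockouts, against 17.5 and 62.5 in the controls, and its call was lost without knockout 1 (limma adjusted p = 0.185) and without knockout 3 (0.121), and it was under the filter without control 2. Cfap44 had -3.37 without control 1 and -2.18 without control 2. The limma adjusted p of the 11 was between 0.000222 for Cfap57 and 0.0417 for Cfap73. Cfap100, which pairs with Cfap73 in a modifier of an inner arm dynein, was the exception, with 19 and 11.3 normalised reads in the knockouts and 15.5 and 13.9 in the controls, and a log2 fold change of 0.00 (adjusted p = 1).

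In the other axonemal lists most tested genes were lower. Of the dynein arm and docking genes 18 of 24 tested were lower (median -2.07), of the radial spoke and central pair genes 19 of 23 (median -1.80), of the tektins and microtubule inner proteins 17 of 21 (median -2.04), and of the dynein arm assembly factors 14 of 18 (median -0.84), with no gene higher in any of these lists. Rsph3a and Rsph3b stand both among the neighbours and in the radial spoke list, of which 17 of 21 were lower without them (median -2.32). The largest falls were larger than those of the members. Dnah17, a sperm outer arm heavy chain, had 26.1 and 55.3 normalised reads in the knockouts, against 2236 and 4162 in the controls (log2 fold change -6.29, limma adjusted p = 7.93e-05). The log2 fold change was -4.94 for Dnah6, an inner arm heavy chain, -4.68 for the sperm radial spoke head gene Rsph6a and -3.30 for Cfap70, listed with the central apparatus. Without control 1 and without control 2 it was -5.54 and -4.34 for Dnah6, and -5.72 and -3.65 for Rsph6a. Tekt3, a tektin, had 3.01 and 0 normalised reads in the knockouts, against 98.9 and 434 in the controls, and Tekt5, another tektin of the sperm tail, had a log2 fold change of -4.14. Among the assembly factors, which help fold dyneins in the cytoplasm, it was -2.85 for Dnaaf6 and -2.57 for Dnaaf1. The number of assembly factors called lower was 7 without knockout 3 and 8 without control 2.

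**Figure D5:**
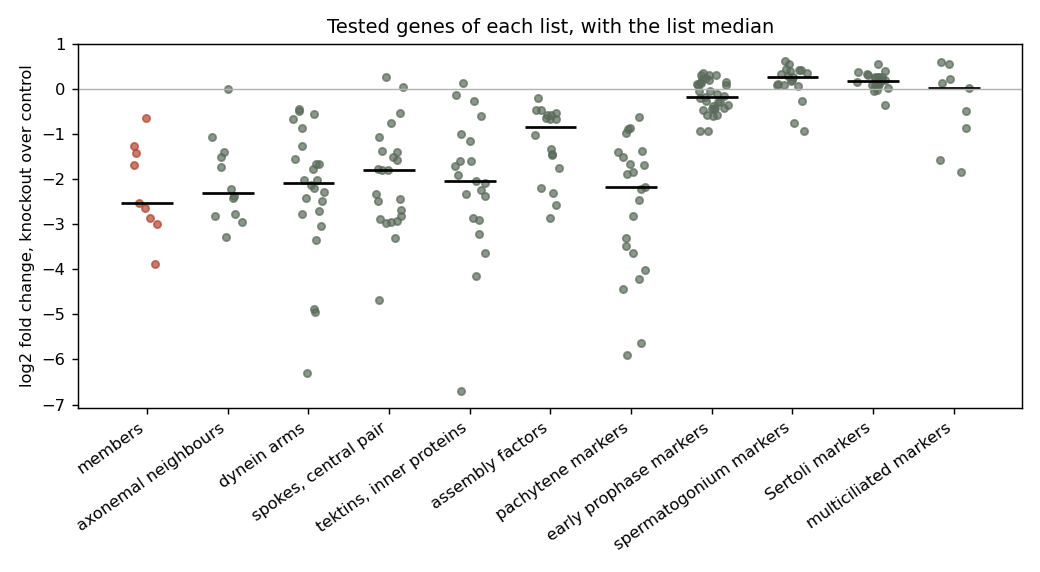
Log2 fold change of the tested genes in each list drawn, with the median of each list marked. The members have a median of -2.52, their neighbours -2.29, the dynein arms -2.07 and the assembly factors -0.84, and the spermatogonial (0.28) and Sertoli (0.19) medians lie above 0.

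In the plot of log2 fold changes by list, the medians of the axonemal and assembly lists run from -2.52 for the members to -0.84 for the assembly factors. The median of the other subunits of the complex was -0.50, and no list was tested against another. Lists of other cell types had medians on both sides of 0. Early meiotic prophase markers had 9 of 34 lower (median -0.16). Spermatogonial markers had 1 of 19 lower and 4 higher (median 0.28), Sertoli markers 0 of 24 lower and 7 higher (median 0.19), Leydig markers 0 of 12 called (median -0.16) and spermatid markers 0 of 7 called (median -0.18).

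Motile cilia also occur in epithelia that could be carried along with a testis, so markers of multiciliated cells and of the efferent ducts were read beside the members. The 13 multiciliated markers in the table summed to 883 and 758 normalised reads in knockout 1 and knockout 3 and to 833 and 969 in control 1 and control 2. Of the 9 tested, Deup1 (log2 fold change -1.57, limma adjusted p = 0.0392) and Cfap126 (-1.83, 0.00522) were lower and Tppp3 was higher (0.61, 0.0288). Cfap126 kept its call with each library left out in turn, Tppp3 lost it each time, and Deup1 kept it only without control 1 (adjusted p = 0.0423). Foxj1, the master regulator of motile ciliogenesis in epithelia, had 70.2 and 77.9 normalised reads in the knockouts and 68.8 and 66.4 in the controls. Gmnc was at 0 in knockout 1 and control 1, and Mcidas, its relative, had 11 and 1.02 normalised reads in the knockouts and 8.73 and 3.97 in the controls. The 19 duct and epididymis markers in the table summed to 3613 and 3353 in the knockouts and to 2825 and 2722 in the controls, mostly from Wfdc10, which was higher in knockouts (log2 fold change 0.41, limma adjusted p = 0.0135, 0.121 without knockout 1 and 0.0704 without control 1), while Crisp1 was at 0 in both knockouts and in control 1. The multiciliated sums overlapped between genotypes, but they rest largely on Tppp3. It had 514 and 445 normalised reads in knockout 1 and knockout 3, against 347 and 284 in control 1 and control 2. This order is opposite to that of Deup1 and Cfap126, so the overlap of the sums does not describe each marker. The duct sums were higher in knockouts. The part of both marker sets in the members' values was not tested. The labelled tissue showed its own markers in every library: the Sertoli list summed to 194187 and 184072 normalised reads in the knockouts and to 166703 and 160048 in the controls.

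Of 13 tested regulators of ciliary and flagellar transcription, 7 were lower and none higher (median -0.61), or 4 lower without knockout 3, and 3 genes of this list are also among the pachytene markers. Rfx2, a factor of the RFX family that the mouse needs for spermatid development, had 1002 and 918 normalised reads in the knockouts, against 2111 and 2886 in the controls, and fell by 1.36 on the log2 scale (limma adjusted p = 0.000606). The log2 fold change was -1.83 for Rfx4, of the same family, and -1.62 for Crem, a regulator of spermatid genes, and both passed. Of the other Rfx genes and Foxj1 none was called: the log2 fold change was 0.37 for Rfx1 (adjusted p = 0.0793), 0.24 for Rfx3 (0.305) and 0.13 for Foxj1 (0.777).

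Likeness of profile was measured as the root-mean-square distance to the mean profile of the members on the log2(value + 1) scale, each gene centred over the 4 libraries, among 12298 genes with a mean of at least 50. The nearest named genes were Zmynd10 and Fank1, each at 0.058, then Cfap43 (0.059), Phf7 (0.066) and Ppp1r42 (0.068). Cfap43 is a neighbour of the complex, Phf7 encodes a histone-binding protein of the male germ line, Fank1 and Ppp1r42 are expressed mainly in the testis, and Zmynd10 is a dynein arm assembly factor. Zmynd10 had 424 and 321 normalised reads in the knockouts, against 1334 and 2122 in the controls. Among the members Ccdc40 was nearest to the mean profile (0.166), and Gas8 (0.832) and Tcte1 (0.992) were farthest. With 4 libraries in 2 groups, a small distance says little more than that a gene differed by like amounts between genotypes and between the controls.

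Promoter windows, from 250 bases before to 50 after the start of transcription, were taken from RefSeq on build GRCm38.p6 for the 8 members that matched by symbol. Tcte1 was the one not matched. They were searched on both strands for a heat shock element, GAANNTTC, since Hsf5 belongs to the heat shock factor family, for the X-box bound by RFX factors, and for motifs of CREM and MYB factors. The sequences before the start of transcription are shown for Drc1, Iqcg and Drc7, 5′ to 3′ on the strand of the gene, with matches in capitals. Capitals mark a heat shock element in Drc1 and a MYB motif in Drc7. In Iqcg, and near the start in Drc1, they mark only a relaxed X-box, chosen after the sequences were seen and described below. Drc1 lies at chr5:30281143-30281392 on the plus strand, Iqcg at chr16:33056187-33056436 on the minus strand and Drc7 at chr8:95054853-95055102 on the plus strand.
Drc1: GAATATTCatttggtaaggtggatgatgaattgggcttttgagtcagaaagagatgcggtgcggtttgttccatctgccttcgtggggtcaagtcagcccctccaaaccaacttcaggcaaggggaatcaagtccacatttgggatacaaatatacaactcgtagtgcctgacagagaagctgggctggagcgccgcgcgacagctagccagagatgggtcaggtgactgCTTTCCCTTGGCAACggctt
Iqcg: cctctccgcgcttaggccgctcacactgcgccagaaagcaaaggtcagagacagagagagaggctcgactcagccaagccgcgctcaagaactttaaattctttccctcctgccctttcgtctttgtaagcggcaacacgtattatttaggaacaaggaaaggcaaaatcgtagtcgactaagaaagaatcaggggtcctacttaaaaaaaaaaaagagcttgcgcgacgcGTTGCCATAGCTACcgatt
Drc7: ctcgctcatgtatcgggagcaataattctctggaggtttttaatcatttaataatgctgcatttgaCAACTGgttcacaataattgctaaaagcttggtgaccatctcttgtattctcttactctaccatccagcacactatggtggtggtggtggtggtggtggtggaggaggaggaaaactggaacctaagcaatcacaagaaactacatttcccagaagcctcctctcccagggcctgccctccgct

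A heat shock element was found in 1 of 8 member promoters, that of Drc1 (GAATATTC, the first capitals), beginning 250 bases before the start, and in 7.86% of 32851 promoters. The longer form with 3 alternating units, which contains the shorter element, was in none of the 8 and in 0.603% of all promoters. The X-box in its strict form was in none of the 8 and in 1.53% of all. A relaxed X-box, chosen after the sequences were seen, took the arms GTTGCC and GGCAAC with 0 to 3 bases between them and at most 2 mismatches. It was found in 3 of 8, namely Drc1 (20 bases before the start), Iqcg (19 bases before) and Drc3 (spanning the start), and in 6.37% of all promoters.

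The full CREM motif TGACGTCA was in none of the 8 and in 1.79% of all promoters, and its TGACG core, counted also within the full motif, was in that of Drc3 and in 20.8% of all. The MYB motif CAGTTG, which can be read as CAACTG on the other strand, was in that of Drc7 and in 13.7% of all. These matches describe letters in a window and not binding. Of the members with the relaxed X-box, the log2 fold change was -2.85 for Drc1, -1.41 for Iqcg and -1.26 for Drc3. A link between motif and change was not tested. The GC content of the 8 windows was between 43% for Ccdc65 and 74.3% for Ccdc40, around a median of 52.7% for all promoters. The ratio of observed to expected CpG was above the median of all promoters (0.384) in 7 of 8, from 0.45 for Ccdc39 to 0.99 for Iqcg, and was 0.19 for Drc7.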

How the data were processed

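RNA of whole testes was sequenced after library preparation with an NEBNext Ultra kit, per the labels' protocols. Of the tools, cutadapt, Bowtie2, featureCounts and DESeq2 are named in the submitters' processing notes with build mm39, and no version or setting is stated. In the authors' deposited table each signal value is a read count over a size factor that is constant within a library: 100% of values were whole multiples of the library's smallest value within 1e-06. Per the file headers the table also holds the authors' log2 fold changes, a test statistic score, p-values and adjusted p-values.

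Value columns for 4 samples were used, and knockout 2 and control 3 were not analysed here. Values were transformed to log2(value + 1) and fitted with limma 3.58.1 (R 4.3.3), using a mean-variance trend. A mean of at least 10 over the libraries was required, which 17480 genes met. Benjamini-Hochberg adjustment ran over all of them, and a gene was called at an adjusted p under 0.05. Prior degrees of freedom were 6.3 against 2 residual, so p-values lean on variance pooled over genes. Fold changes on this scale understate those of low genes.

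Exon lengths and overlaps came from GENCODE M21 and promoters from RefSeq, both on build GRCm38. They were matched by gene ID and symbol, and no coordinates are given in the authors' build. The members, gene lists and tests were chosen with earlier results of these data known. Genes named were all members, the tested genes of the lists of other subunits and neighbours, the 2 called genes with the largest change and a mean of at least 50 in each other axonemal, assembly and regulator list, tested Rfx genes and Foxj1, Hsf5, and the 5 nearest profiles. Marker genes, overlapping genes and genes under the filter were named after their values were seen.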

Additional observations from a re-analysis of the deposited data

How the results depend on the processing

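All 9 members were called lower with pseudocounts of 0.5 and 5, a minimum mean of 50, TMM factors, library totals, Sertoli markers and early prophase markers. Between 7 and 9 were called when 1 library was left out, and 6 without a filter on low values, where Drc3, Gas8 and Tcte1 were not called by limma. Without a mean-variance trend limma called 0 members, with 9 at an unadjusted p under 0.05. Scaling to pachytene markers called 1 lower and 1 higher, and turned the log2 fold change to 0.87 for Ccdc39, 0.04 for Ccdc40, 1.30 for Drc3, 1.92 for Gas8 and 1.14 for Iqcg, while the median of all genes moved by 2.55. That median was 0.12 with library totals, -0.17 with Sertoli markers and 0.17 with early prophase markers. Over all genes 2366 were lower and 573 higher. With no filter limma called 815 lower and 37 higher, and without a trend 40 lower and 0 higher, with 2827 lower and 1456 higher at an unadjusted p under 0.05. Sertoli markers gave 3955 lower and 120 higher, pachytene markers 277 lower and 16155 higher, library totals 2007 lower and 1511 higher, early prophase markers 1749 lower and 1269 higher, and TMM factors 2279 lower. There were 1549 lower and 77 higher without knockout 1, 1086 and 71 without knockout 3, 2054 and 308 without control 1, and 1389 and 192 without control 2, where the lone library of a group is assumed to vary like the others. The causes were not tested. Count tests on reads recovered from the table, with other size factors, were planned and not run. No paired analysis was possible because the columns of knockouts and controls share only 1 replicate number. Depth limits Tcte1, which rests on 10 reads in knockout 3.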
